A study of Mus musculus with 2 samples.

Results

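The cytochrome P450 genes of the Cyp2, Cyp3 and Cyp4 families were examined for open chromatin in the mouse embryo. Members were chosen by name: protein-coding genes of the GENCODE M21 annotation (mm10 build) whose symbol is Cyp, then 2, 3 or 4, a letter and digits. The rule found 72 of the 21755 annotated on the autosomes and X, of which 48 are Cyp2, 7 are Cyp3 and 17 are Cyp4 genes. A further 6 annotated P450 genes fell just outside the rule, because their symbol has a second letter or a letter after the digits (Cyp2ab1, Cyp3a41a, Cyp3a41b, Cyp4a12a, Cyp4a12b and Cyp4a30b). DNase-seq, which sequences the DNA that the nuclease DNase I cuts where chromatin is accessible, was done on whole B6NCrl embryos of 11 days, with male and female embryos pooled. There was 1 group of 2 replicates, labelled as biological, each with its own biosample entry and both under a common donor entry. Each replicate has a list of 150-bp peaks, 204697 in replicate 1 and 231103 in replicate 2. Each peak carries a deposited score, a whole number from 1 to 150 with a median of 45 and 50. How it was computed was not stated. Genes are not replicates of a condition and the design has no second group, so shares are given beside those of all genes, with no test.

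P450 enzymes are heme proteins of the endoplasmic reticulum and mitochondria that insert an oxygen atom into their substrates with electrons from partner reductases. The Cyp2 and Cyp3 families are best known for clearing drugs and foreign compounds in adult liver, and the Cyp4 family for hydroxylating fatty acids and eicosanoids at the end of the chain. Most of these genes stand in tandem clusters made by repeated gene duplication, and many are switched on in liver only around or after birth. A few act outside this pattern, such as Cyp2r1, which hydroxylates vitamin D. In a whole embryo, fewer cells of a type and less accessible chromatin per cell cannot be told apart.

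The following promoters carry the contrast that runs through the family, and each is the 150 bases before the 5′-most annotated transcription start site (TSS), read from the GRCm38 (mm10) reference with CpG dinucleotides in capitals. Cyp2r1 (chr7:114562973-114563122, minus strand) and the fatty acid hydroxylase gene Cyp2u1 (chr3:131303228-131303377, minus strand) hold 11 and 12 CpGs and had the 2 highest promoter scores. The arachidonic acid epoxygenase gene Cyp2j6 (chr4:96553662-96553811, minus strand) holds 3. Cyp4f15 (chr17:32685477-32685626, plus strand) holds 0 and still had a peak in both replicates. Cyp3a11 (chr5:145879965-145880114, minus strand), a main drug-metabolising P450 of adult liver, and Cyp2e1 (chr7:140763589-140763738, plus strand), the ethanol-oxidising P450, hold 1 and 0 and had no peak in either replicate.
Cyp2r1: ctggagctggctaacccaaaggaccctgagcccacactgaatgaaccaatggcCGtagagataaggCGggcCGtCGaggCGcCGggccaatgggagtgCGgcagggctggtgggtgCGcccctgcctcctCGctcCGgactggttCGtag
Cyp2u1: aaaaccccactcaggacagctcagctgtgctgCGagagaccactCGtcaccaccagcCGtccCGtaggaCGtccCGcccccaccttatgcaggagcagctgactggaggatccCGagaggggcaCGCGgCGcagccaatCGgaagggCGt
Cyp2j6: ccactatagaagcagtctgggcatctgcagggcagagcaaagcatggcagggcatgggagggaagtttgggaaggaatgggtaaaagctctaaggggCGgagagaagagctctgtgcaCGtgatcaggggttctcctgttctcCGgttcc
Cyp4f15: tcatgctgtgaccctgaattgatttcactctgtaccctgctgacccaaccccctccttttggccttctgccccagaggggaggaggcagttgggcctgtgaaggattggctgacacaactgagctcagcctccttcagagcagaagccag
Cyp3a11: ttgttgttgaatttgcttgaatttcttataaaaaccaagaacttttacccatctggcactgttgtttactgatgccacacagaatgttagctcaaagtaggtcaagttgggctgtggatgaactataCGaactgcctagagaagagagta
Cyp2e1: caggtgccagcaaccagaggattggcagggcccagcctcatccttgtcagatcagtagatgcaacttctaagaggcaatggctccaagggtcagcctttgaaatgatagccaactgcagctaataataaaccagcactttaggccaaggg

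A promoter peak, meaning a peak with an edge within 500 bp of any annotated TSS of the gene, was present in both replicates for 15 of the 72 genes (20.8%), against 70.3% of all protein-coding genes (15296 of 21755). Replicate 2 alone added 5 members, replicate 1 alone added 0, and 52 had no promoter peak. Across all genes, 190 had a promoter peak in replicate 1 only and 391 in replicate 2 only. By family the count was 7 of 48 Cyp2 genes, 0 of 7 Cyp3 genes and 8 of 17 Cyp4 genes. Every one of the 15 also had a promoter hotspot, the broader enriched region of the second deposited list, in both replicates. No TSS of another protein-coding gene lay within 500 bp of any of these promoter peaks.

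The 2 highest promoter scores belonged to genes that stand alone in the genome. The best promoter peak of Cyp2u1 scored 134 in replicate 1 and 139 in replicate 2. Cyp2r1 scored 131 and 135. Both exceeded the median best score of all genes with a promoter peak in both replicates (125 and 130), as no other member did in either replicate. Cyp4v3, the mouse counterpart of a human fatty acid hydroxylase gene tied to a retinal dystrophy, scored 93 and 116. Over the 15 members the median best score was 90 in replicate 1 and 100 in replicate 2, and 13 of the 15 were below the all-gene median in each.

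Cyp2j6, Cyp2j9 and Cyp2j13 were the 3 of 8 Cyp2j epoxygenase genes with a promoter peak in both replicates. Cyp2j6 scored 96 and 107, Cyp2j13 scored 77 and 80, and Cyp2j9 scored 72 and 77. Their neighbours Cyp2j5, Cyp2j7, Cyp2j8 and Cyp2j11 had none in either replicate. Cyp2d22 was the only one of 8 Cyp2d genes with a promoter peak in both, at 81 and 100. Cyp2s1, a P450 of epithelia outside the liver, scored 57 and 73, while the other 12 members of its chromosome 7 cluster had no promoter peak in both replicates. Cyp4x1, a P450 known from brain, scored 54 and 69, while Cyp4b1 and the 5 Cyp4a genes beside it had none in either replicate.

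The Cyp4f subfamily, whose known members hydroxylate leukotrienes and very long fatty acids, had the most, with 6 of 9 genes. Cyp4f17 scored 98 and 102, Cyp4f16 scored 96 and 100, and Cyp4f13 scored 90 and 95. Cyp4f39, the counterpart of a human skin barrier gene, scored 84 and 86 at its 5′-most TSS, and 91 and 108 beside an internal TSS of a retained-intron transcript. Cyp4f15 had the lowest scores of the 15, at 47 and 66. Cyp4f37 scored 90 and 92, but these peaks lay in its last exon, near the TSS of a retained-intron transcript 13393 bp downstream of the 5′-most TSS. With a window of 200 bp, with the 5′-most TSS alone, or with protein-coding transcripts alone, Cyp4f37 had no promoter peak and the count was 14. Cyp4f14, Cyp4f18 and Cyp4f40 had no promoter peak in either replicate.

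**Figure D1:**
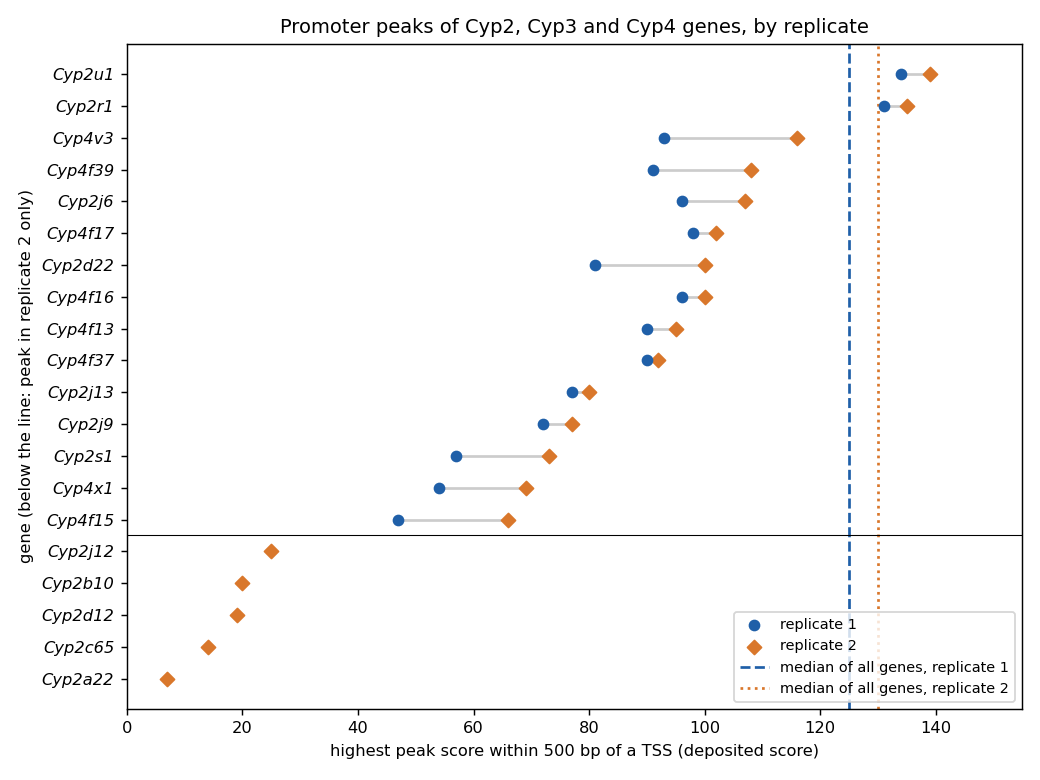
Highest deposited peak score within 500 bp of a TSS (x axis) for each member with a promoter peak (y axis), in replicate 1 (circles) and replicate 2 (diamonds); vertical lines mark the median over all genes with a promoter peak in both replicates. Cyp2u1 and Cyp2r1 lie to the right of both lines, the other 13 genes with a peak in both lie to the left, and the 5 genes below the horizontal line had a peak of score 25 or less in replicate 2 only.

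The 5 members with a promoter peak in replicate 2 only all had scores far down that replicate's list. Cyp2j12 scored 25, Cyp2b10 (an adult liver gene induced by phenobarbital) scored 20, Cyp2d12 scored 19, Cyp2c65 scored 14 and Cyp2a22 scored 7. The highest of these, Cyp2j12, stood at percentile 5.66 of all replicate 2 scores. Replicate 2 has the longer peak list. Of the 6 symbols just outside the rule, 0 had a promoter peak in both replicates, and Cyp2ab1 had one of score 20 in replicate 2 only.

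Several subfamilies known from adult liver had no promoter peak in both replicates. This held for all 15 Cyp2c genes, all 7 Cyp3a genes, all 5 Cyp2b genes, all 4 Cyp2a genes and all 5 Cyp4a genes. Among them are Cyp2c29 and Cyp2a5 of adult liver, Cyp3a16, a form known from fetal liver, and the PPAR-alpha targets Cyp4a10 and Cyp4a14. Cyp2e1, Cyp2f2 of the lung's club cells, Cyp2g1 of the olfactory mucosa, Cyp2t4, Cyp2w1 and Cyp4b1 also had none. Cyp2w1 and Cyp2c23, a renal epoxygenase gene, came closest. The nearest shared peak, meaning a replicate 1 peak that overlaps a replicate 2 peak by at least 1 bp, lay 999 bp from the 5′-most TSS of Cyp2w1 and 1983 bp from that of Cyp2c23. A window of 1000 bp added Cyp2w1 and one of 2500 bp added Cyp2c23 as well.

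Most member TSSs lay far from any shared peak. The distance from the 5′-most TSS to the nearest one had a median of 24.4 kb over members and 0.05 kb over all genes. Among genes without a promoter peak in both replicates, the median was 41.2 kb for members and 17.2 kb for all genes. Over the full sets the distance exceeded 10 kb for 47 of 72 members (65.3%), against 19.02% of all genes. It exceeded 50 kb for 27 members (37.5%), against 8.83%. Cyp2c67 was the farthest, at 550.0 kb, followed by Cyp2c68 at 484.5 kb. Cyp3a44 stood 341.1 kb from a shared peak, Cyp3a11 stood 267.0 kb away and Cyp2e1 24.0 kb.

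Member promoters were poor in CpG, and those with a promoter peak were less so. The ratio of observed to expected CpG within 500 bp of the 5′-most TSS had a median of 0.13 over members and 0.56 over all genes. Members with a promoter peak in both replicates had a median of 0.30 (range 0.09 to 0.76), and the 57 without had a median of 0.12 (range 0.02 to 0.31). The 3 members in the upper 5 deciles of all genes, Cyp2r1 (0.76), Cyp2u1 (0.70) and Cyp4v3 (0.69), all had a peak, as did 98.4% of all genes there. In the lower 5 deciles 12 of 69 members (17.4%) had one, against 42.3% of all genes. In the lowest 3 deciles it was 5 of 60 members (8.33%), against 22.0%. Members had one at 3 of 30 in decile 1 (all genes 8.96%) and 0 of 20 in decile 2 (21.2%). It was 2 of 10 in decile 3 (35.85%), 3 of 5 in decile 4 (58.25%) and 4 of 4 in decile 5 (87.04%). If each member had the share of its own decile, 19.9 members would have a promoter peak, where 15 did. Cyp4f15 (0.09), Cyp4f37 (0.09) and Cyp4f16 (0.10) were the members of the lowest decile with a promoter peak, the one of Cyp4f37 lying at its internal TSS.

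**Figure D2:**
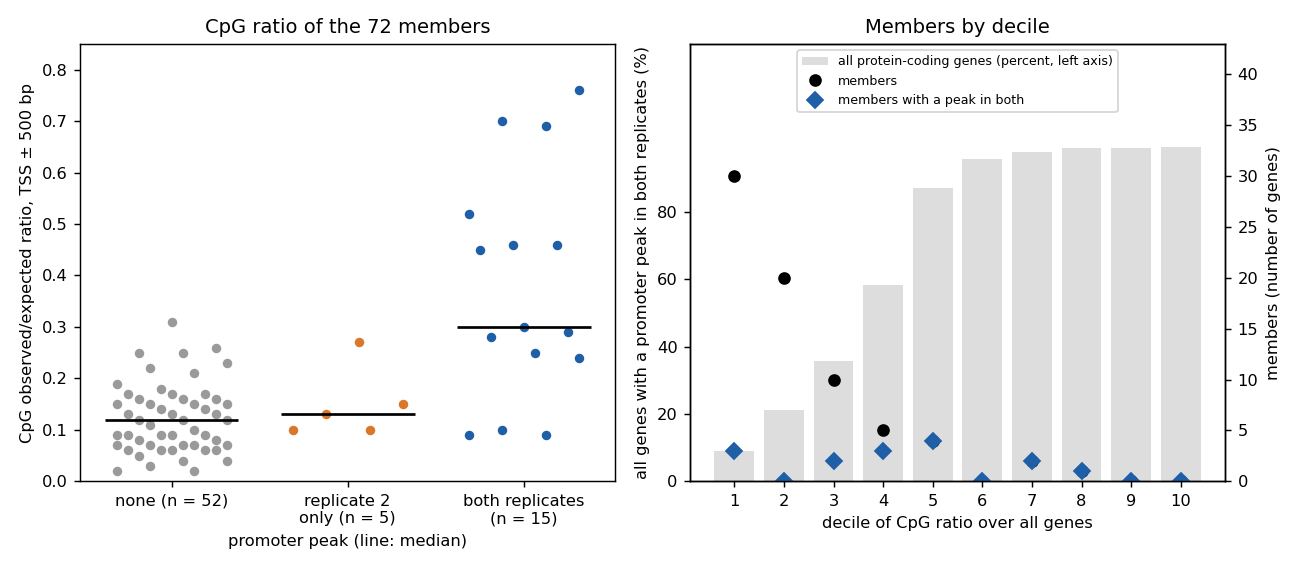
Left, CpG observed-to-expected ratio around the 5′-most TSS (y axis) of the 72 members, grouped by promoter peak (x axis), with lines at the medians 0.12, 0.13 and 0.30. Right, percent of all protein-coding genes with a promoter peak in both replicates (bars, left axis) and number of members (circles) and of members with such a peak (diamonds, right axis) in each decile of the ratio; 60 of 72 members are in deciles 1 to 3, where the bars stay under 40%.

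Near-identical copies leave reads without a single place in the genome, and how such reads were treated was not stated. The share of 32-base words within 250 bp of the 5′-most TSS that occur once in the genome had a median of 88.0% over members, while the all-gene median was every word. Of the 35 members with at least 90% unique words, 13 had a promoter peak in both replicates (37.1%), against 78.0% of all such genes. Of the 37 members under 90%, 2 had one, Cyp4f16 and Cyp4f37, against 27.7% of all such genes. Among genes with at least 90% unique words in the lower 5 CpG deciles, it was 10 of 32 members (31.2%) against 51.3%. Around Cyp2c29 0% of the words were unique and around Cyp2c40 18.1%. Every word was unique around Cyp2e1, Cyp2f2, Cyp2g1 and Cyp3a13, and 98.9% around Cyp3a11, and none of these 5 had a promoter peak.

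Short words differed between promoters with and without a peak, in the window from 250 bases before to 50 after the 5′-most TSS, both strands searched. TATAAA, the letters of the TATA box, occurred in 26 of the 57 members that lack a promoter peak in both replicates, in 0 of the 15 with one, and in 12.65% of all promoters. This word holds only A and T. The median GC content within 500 bp of the TSS was 45.05% in the 57 members and 53.75% in the 15. Its part in the difference was not tested, and the share over all promoters without a peak was not counted. CAAAGTCCA, a form of the site of the liver factor HNF4, occurred in 8 members (11.1%), against 0.423% of all promoters. These were Cyp3a11, Cyp3a16, Cyp2c40, Cyp2c65, Cyp2c67, Cyp2c68, Cyp2c69 and Cyp2c70, and none had a promoter peak in both replicates. TTGCNNCAA, a word not taken here as the site of any factor, occurred in Cyp2c37, Cyp2c50 and Cyp2c54 and in 2.09% of all promoters. The GC box GGGCGG occurred in 7 of the 15 members with a peak and 3 of the 57 without (all promoters, 43.4%), and GCGTG, the core bound by the AHR complex, in 8 of 15 and 4 of 57 (all promoters, 37.1%). These last 2 words hold a CpG and can share end bases. Paired nuclear receptor sites (AGTTCA or AGGTCA repeated with 4 bases between, AGGTCA also with 1) occurred in 0 members, and in at most 0.0506% of all promoters. Genes of a cluster descend from common copies, so their promoters are not independent, and a match is a description of letters, not a bound site.

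Outside promoters, 24 of the 72 members (33.3%) had a gene body peak in both replicates, against 57.1% of all genes. A body peak has its midpoint inside the annotated gene and lies more than 500 bp from every TSS of that gene. Of the 15 members with a promoter peak 13 also had body peaks in both (86.7%), all but Cyp2r1 and Cyp4v3. Among all genes with a promoter peak in both replicates the share was 71.25%. Of the 57 members without, 11 had body peaks in both (19.3%), against 23.55% of all genes without. The body peaks of Cyp4f37 did not overlap between replicates. Over the 1893 kb of member genes there were 40 shared body peaks, 2.11 per 100 kb, against 6.32 per 100 kb for all genes. The 14 in Cyp4f genes came to 7.50 per 100 kb.

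Several genes without a promoter peak in both replicates held body peaks in both. Cyp2w1, a P450 known from fetal gut and colon tumours, held 2 shared peaks within its 4.42 kb, and the one in intron 4 scored 79 in each replicate. Cyp2f2 held 2, in intron 4 (scores 45 and 57) and intron 9 (61 and 72). Cyp2c23 held 3 and Cyp3a13, a Cyp3a gene outside the main cluster, held 3, with scores of 42 or less and 27 or less in either replicate. Cyp2b10, Cyp2b13, Cyp2d9 and Cyp2j12 each held 1 shared peak with scores of 37 or less. The other 3 were Cyp4f14, Cyp4f18 and Cyp4f40. In the genes with a promoter peak, the highest body scores outside the last exons of Cyp4f genes were in intron 7 of Cyp2s1 (85 and 98) and exon 8 of Cyp4f39 (85 and 100). Cyp2d22 held 3 shared peaks in intron 1, with scores of 28 to 45.

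All 9 Cyp4f genes had a peak with its midpoint in the last exon in both replicates, a pattern noticed after the values were seen. Among the other 63 members Cyp3a13 alone had one, and the share was 10.9% of all protein-coding genes with 2 or more exons (2205 of 20285). The best last-exon scores were 114 and 122 in Cyp4f13, 100 and 104 in Cyp4f17, 100 and 101 in Cyp4f18, and 94 and 111 in Cyp4f16. Cyp4f39 scored 91 and 108, and Cyp4f37 scored 90 and 92, and these are the internal-TSS peaks described above. Cyp4f40 scored 45 and 67, Cyp4f14 scored 49 and 57, and Cyp4f15 scored 25 and 47. Thus Cyp4f18, on chromosome 8 and apart from the other 8 on chromosome 17, had a last-exon peak among the highest of the set and no promoter peak. Apart from a peak of score 15 in replicate 1 and one of score 21 in replicate 2 in Cyp4f37, the midpoints fell between 139 bp before and 93 bp after the last coding base.

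**Figure D3:**
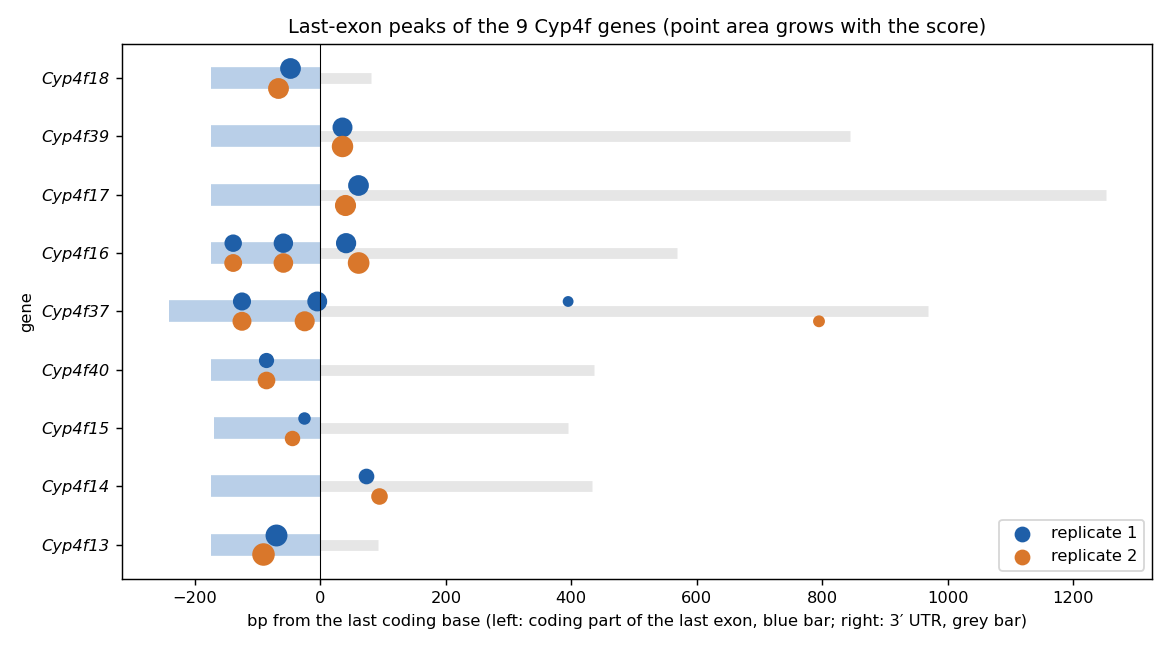
Peak midpoints in the last exon of each Cyp4f gene (y axis), in bp from the last coding base (x axis), for replicate 1 (blue) and replicate 2 (orange); point area grows with the deposited score, wide blue bars are the coding part and thin grey bars the 3′ untranslated part. All 9 genes have a point of each replicate close to the end of the coding part, with the best scores ranging from 25 in Cyp4f15 to 122 in Cyp4f13.

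The coding part of these exons had a higher CpG ratio than every promoter of the same subfamily (0.46 at most, in Cyp4f39), but the peaks did not all lie on it. It begins with the codons around the cysteine that holds the heme iron, the region P450 enzymes share most. Shown are its first 120 bases in 4 genes, again from GRCm38 with CpGs in capitals: Cyp4f13 (exon 13, chr17:32924835-32924954, minus strand) has the highest last-exon score, Cyp4f18 (exon 13, chr8:71988618-71988737, minus strand) has no promoter peak, Cyp4f15 (exon 13, chr17:32702789-32702908, plus strand) has the lowest score, and Cyp4f39 (exon 14, chr17:32492302-32492421, plus strand) is the most diverged. The stretches overlap the last-exon peaks in part, except that of Cyp4f39, which ends before its peak.
Cyp4f13: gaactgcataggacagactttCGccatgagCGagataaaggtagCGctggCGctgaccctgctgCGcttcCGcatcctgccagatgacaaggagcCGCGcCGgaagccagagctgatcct
Cyp4f18: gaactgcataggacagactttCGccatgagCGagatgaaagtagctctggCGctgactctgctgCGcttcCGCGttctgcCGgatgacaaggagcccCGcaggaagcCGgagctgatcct
Cyp4f15: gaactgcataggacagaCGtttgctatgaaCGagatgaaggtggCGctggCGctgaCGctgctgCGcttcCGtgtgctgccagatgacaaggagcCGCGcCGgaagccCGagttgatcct
Cyp4f39: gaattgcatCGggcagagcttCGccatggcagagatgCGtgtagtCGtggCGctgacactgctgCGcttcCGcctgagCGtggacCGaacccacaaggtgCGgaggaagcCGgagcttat

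These 4 stretches hold 9, 9, 11 and 11 CpGs. After pairwise alignment, the 28 pairs without Cyp4f39 were 87.5% to 95.0% identical, and the 8 pairs with it 66.1% to 70.6%. The CpG ratio of the last exon's coding part ranged from 0.62 (Cyp4f17) to 0.95 (Cyp4f15) with a median of 0.87, while the promoter ratio of the 9 genes had a median of 0.09. The best-scoring peaks themselves had a CpG ratio of 0.65 to 0.90 in Cyp4f13, Cyp4f15, Cyp4f18, Cyp4f39 and Cyp4f40. In Cyp4f14, Cyp4f16, Cyp4f17 and Cyp4f37 it was 0.17 to 0.39. Those of Cyp4f14, Cyp4f16 and Cyp4f17 held 0 to 36 coding bases and lay mostly past the last coding base. The Cyp4f39 peak, of the higher-ratio group, also lay mostly past it, with 41 coding bases in each replicate. The best Cyp4f37 peaks, of the lower-ratio group, held 81 and 101 coding bases. Among all genes whose last exon has at least 100 coding bases, 28.9% had a last-exon peak in both replicates where that ratio was 0.6 or more (2291 genes), and 9.23% where it was lower. Cyp2b23, Cyp2c55 and Cyp2e1 also had a ratio of 0.6 or more there, and none had a last-exon peak in both replicates. In the last-exon peaks of Cyp4f14, Cyp4f18 and Cyp4f39, every 32-base word was unique in the genome. The peaks of Cyp4f17 were at 90.8%. In the other 5 genes at least 1 peak was under 90%, as were 4.08% of all replicate 1 peaks. These were Cyp4f13 (62.2% and 67.2%), Cyp4f40 (61.3%), Cyp4f37 (63.9% at the lowest), Cyp4f15 (81.5%) and Cyp4f16 (58.0% at the lowest). The part of repeated sequence in these peaks was not tested.

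Of the 72 members, 64 stood in 7 clusters, defined as runs of members with gaps under 500 kb, and 8 stood alone. The clusters together held 2.00 shared peaks per 100 kb, against 6.35 over chromosomes 1 to 19 and X. The Cyp3a cluster (chr5:145345279-146113287) held 0 shared peaks in 768.0 kb over 6 members, with 4 peaks in replicate 1 and 1 in replicate 2 that did not overlap. The 500 kb on either side held 7.80 and 6.60 shared peaks per 100 kb. Of the nearest genes outside, Zscan25 had a promoter peak in both replicates and Gm5565 did not. The Cyp2c cluster (chr19:39007019-40187333) held 1 shared peak in 1180 kb over 14 members. A stretch of 1088 kb without a shared peak covered 12 of these genes, from Cyp2c66 to Cyp2c70. Its flanks held 6.60 and 8.0 per 100 kb, and the nearest genes outside, Hells and Pdlim1, both had promoter peaks in both replicates.

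The other 4 clusters apart from Cyp4f held fewer shared peaks per 100 kb than either flank. The chromosome 7 cluster of Cyp2a, Cyp2b, Cyp2f, Cyp2g, Cyp2s and Cyp2t genes held 29 shared peaks in 1356 kb (2.14 per 100 kb), with 704.2 kb free of them over Cyp2b9, Cyp2a4, Cyp2b23 and Cyp2b19. Its flanks held 16.6 and 16.4 per 100 kb. The Cyp2d cluster held 3.07 per 100 kb against flanks of 16.4 and 16.2, and the Cyp4a, Cyp4b and Cyp4x cluster 2.03 against 20 and 14. The Cyp2j cluster held 1.89 against 7.40 and 5.20. The Cyp4f cluster differed from these, with 42 shared peaks in 494.7 kb (8.49 per 100 kb) against 12 and 3.80, and its longest stretch without one was 83.8 kb. It also holds 4 zinc finger genes (Zfp799, Zfp811, Zfp870 and Zfp871), all with promoter peaks in both replicates, and 15 of its 42 shared peaks lay inside member genes.

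**Figure D4:**
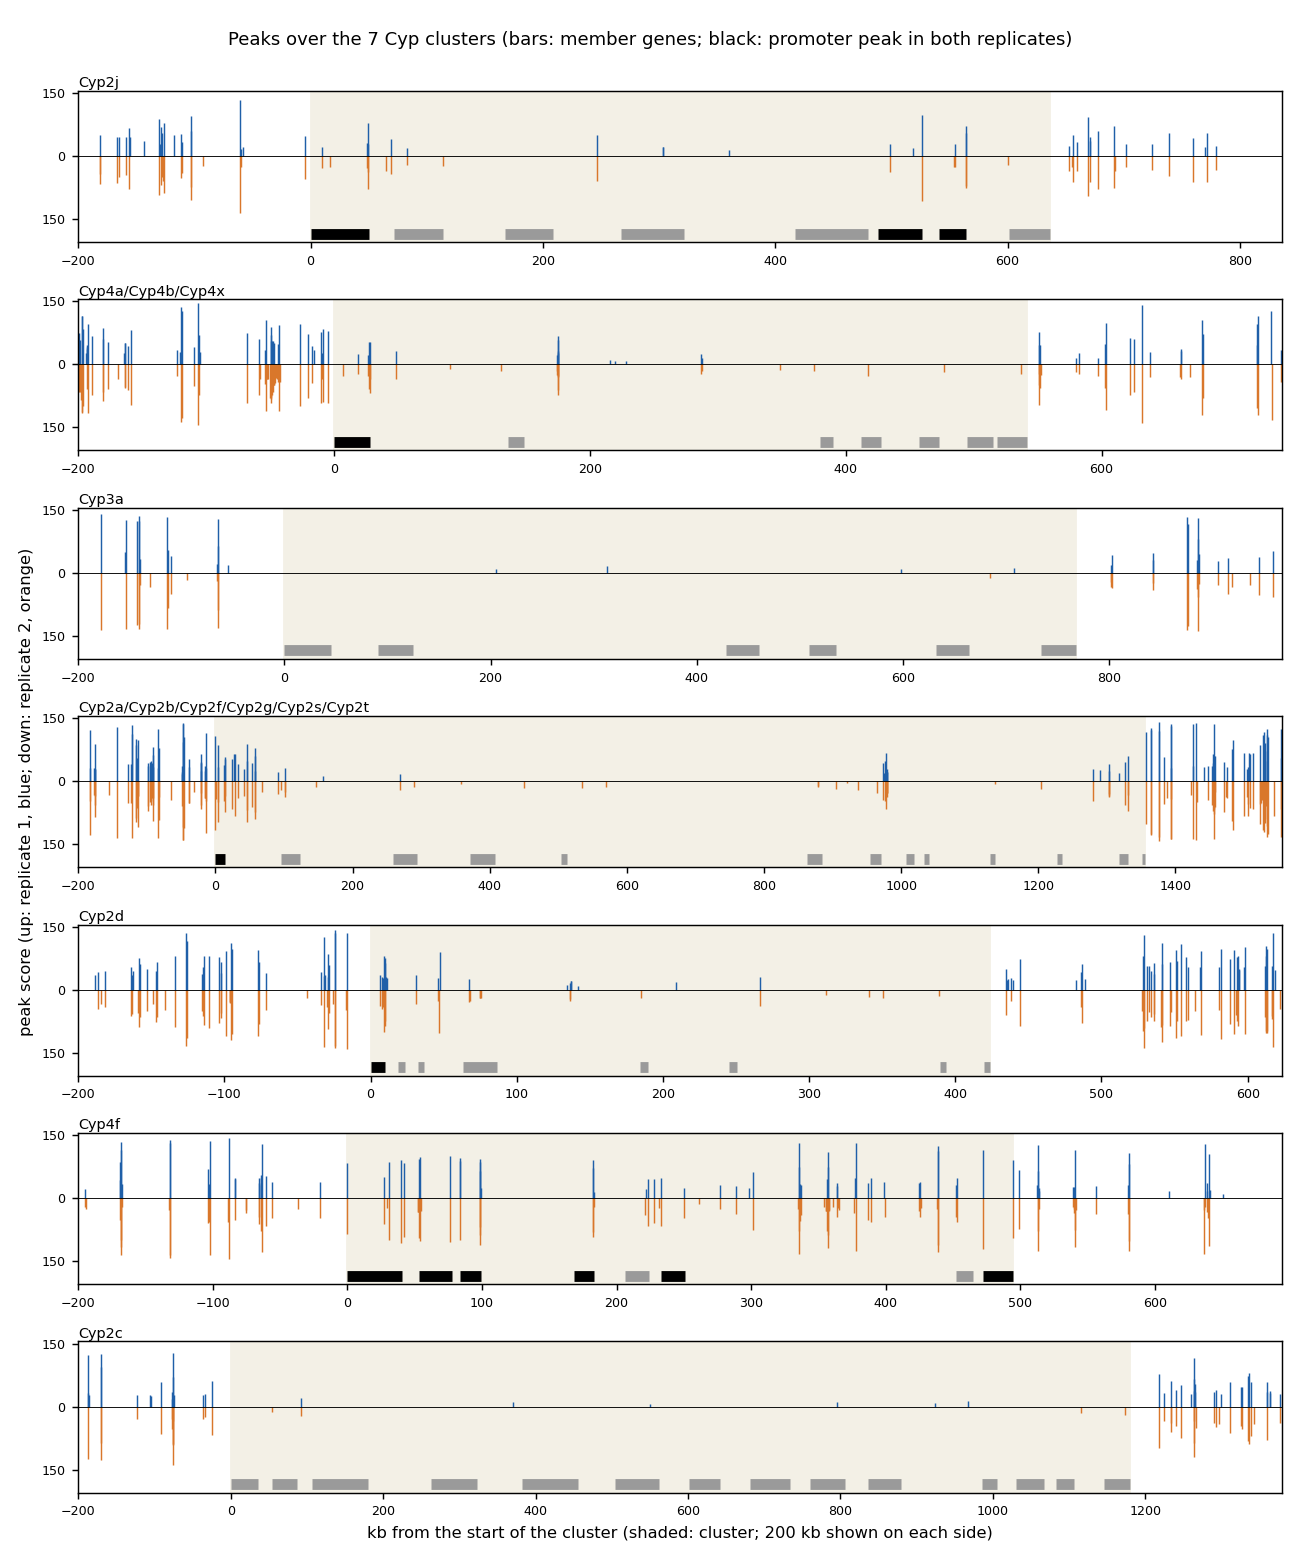
Deposited peak score (y axis, replicate 1 upward, replicate 2 downward) against distance in kb from the start of each of the 7 clusters (x axis), with 200 kb on either side; the shaded area is the cluster and the bars are member genes, black where the promoter had a peak in both replicates and grey otherwise. The Cyp3a and Cyp2c panels are nearly empty inside the shading, and the Cyp4f panel has peaks over most of its length, with a longest stretch of 83.8 kb without a shared peak.

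Sequence that occurs once was scarcer inside 6 of the 7 clusters than in either flank. In the Cyp4f cluster it was scarcer than in the flank before and more common than in the flank after. The share of unique 32-base words was 51.3% in the Cyp3a cluster (flanks 84.4% and 73.1%), 55.3% in the Cyp2c cluster (91.5% and 91.8%) and 83.9% in the Cyp4f cluster (88.9% and 62.1%). The Cyp4a, Cyp4b and Cyp4x cluster had 56.3%, the chromosome 7 cluster 61.8%, the Cyp2d cluster 66.4% and the Cyp2j cluster 73.6%. All shared peaks of a stretch, also those in repeated sequence, were then divided by its length of unique sequence. Per 100 kb of that length, the Cyp3a cluster held 0 shared peaks over 394.3 kb (flanks 9.24 and 9.03). The Cyp2c cluster held 0.153 over 652.2 kb (flanks 7.21 and 8.71). On the same scale the Cyp2j cluster held 2.56, the chromosome 7 cluster 3.46, the Cyp4a, Cyp4b and Cyp4x cluster 3.61, the Cyp2d cluster 4.62 and the Cyp4f cluster 10.1. The Cyp3a and Cyp2c clusters held 0 and 1 shared peaks, so they came lowest on either scale. The part of repeated sequence in these densities was not tested.

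Promoter peaks were also counted for genes that act with P450 enzymes. Of 16 genes for electron partners and heme metabolism 15 had a promoter peak in both replicates, among them Por, the P450 reductase, Cyb5a, and Alas1, which starts heme synthesis in most tissues; Alas2, its erythroid counterpart, had none. Of 23 transcription factors known to act on P450 genes in adult liver 19 had one, including Hnf4a. With the 5′-most TSS alone it was 15 (65.2%), the share of all genes in that setting being 65.2%. Nr1i2 and Nr1i3, which encode the drug-sensing receptors PXR and CAR, and Nr1h4, which encodes the bile acid receptor, had none. Other P450 families had one at 11 of 21 genes, including the retinoic acid hydroxylases Cyp26a1 and Cyp26b1 and the sterol hydroxylase Cyp7b1. The retinoic acid hydroxylase Cyp26c1 and the bile acid synthesis genes Cyp7a1 and Cyp8b1 had none. Conjugation enzymes of the Ugt, Sult and Gst families had one at 22 of 62 genes (35.5%), and arachidonic acid and epoxide enzymes, such as Ptgs2 and Ephx1, at 12 of 12. The background for each of these is 70.3%.

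Markers of embryonic cell types were counted in the same way, beside the share of 70.3% over all genes. Promoter peaks in both replicates were present at all 5 neural tube markers, all 3 limb and mesenchyme markers, 2 of 3 heart markers and 1 of 3 erythroid markers. Of 12 markers of liver precursor cells 8 had one (66.7%), including Afp, while Alb, Ttr, Apoa1 and Serpina1a had none. The neural tube markers had a median CpG ratio of 0.75, and 99.2% of all genes in that decile (0.73 to 0.80) had one. The counts were therefore not a test of the labelled tissue. The share of liver cells in these embryos was not measured, and its part in the counts of members was not tested.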

How the data were processed

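DNase-seq of whole embryos was deposited as a peak list and a hotspot list per replicate, called on the mm10 alignments of that replicate alone, per the file headers and accompanying text. The deposited peaks carry a score of unstated construction, used here only within a list. The deposited hotspots carry a −log10 q value, from 1.30 to a ceiling of 100. The aligner, the caller and the read filters (versions included) and the read depth were not stated, so no interval or floor could be set. Peaks were related to GENCODE M21 genes with Python 3.11.15, numpy 2.4.6 and pandas 2.3.3, using windows of 500 bp around every TSS. Of the gene symbols, 27 occur under more than 1 gene ID, and each ID was counted. CpG ratios, words of 32 bases (found with numba 0.67.0 and tested on simulated data) and motifs came from the GRCm38 reference, whose chromosome lengths match the mm10 build. The genes named were those with a promoter or body peak, well-known members without one, and up to 5 of each list. Cyp26c1, genes beside clusters and other members named were chosen after their values were seen. Last-exon peaks and peaks per unique sequence were measured after the data were seen. The members and lists were chosen with earlier results of these data known. Both replicates form 1 group, so no comparison between groups of samples was made. Alternatives changed the window, the TSSs, the overlap, the score minimum, the list and the replicates used. The value of 1 listed transcription factor gene is not reported here.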

Additional observations from a re-analysis of the deposited data

How the results depend on the processing

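The count of members with a promoter peak in both replicates was 15 and ran from 14 to 17 over the other windows, TSS sets and lists, and from 15 to 20 with a single replicate; the 5 genes added by replicate 2 alone were Cyp2j12, Cyp2b10, Cyp2a22, Cyp2d12 and Cyp2c65. All genes ran from 65.2% to 75.04%. Cyp4f37 was lost (0 in place of 1) with a window of 200 bp, with protein-coding transcripts alone and with only the 5′-most TSS, and the other 14 genes kept their peak in every such setting. With only peaks above the median score of their list, members with a body peak in both replicates numbered 10 in place of 24 (all genes 42.1% in place of 57.1%), body density was 0.687 per 100 kb in place of 2.11 (all genes 3.22), and density inside clusters was 0.944 in place of 2.00 (all chromosomes 3.51). With 1 replicate, where every peak counts, body density was 2.70 to 3.22 (all genes 8.06 to 9.30) and cluster density 2.59 to 3.24 (all chromosomes 7.99 to 9.02). Cluster density was 1.39 over peaks more than 1000 bp from any protein-coding TSS, a setting in which the density over all chromosomes was not counted. The last-exon alternatives were added after the data were seen: the Cyp4f count was 9, 7 with peaks above the median score, 8 with hotspots and 9 with either replicate alone, and the count over other members was 1, 0 with peaks above the median score, 2 with hotspots, and 1 to 4 with a single replicate. The all-gene shares there were 10.9%, 7.06%, 9.96%, and 12.5% to 14.3%. Over all settings the promoter count ran from 12 to 16 for electron partners and heme genes, 15 to 20 for transcription factors, 8 to 13 for other P450 families, 19 to 29 for conjugation enzymes and 10 to 12 for arachidonic acid and epoxide enzymes. No paired analysis was possible because there is only 1 group. The unknown read depth limits what a missing peak shows.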
